A study of Homo sapiens with 8 samples.

Results

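The genes described here are NEFL, NEFM, NEFH, INA and NES, the neuronal intermediate filament genes and nestin. They are 5 of the 20339 genes in the raw count table and were chosen by name, because NEFL and NEFM had appeared in COV318-MGP libraries only. All 5 were in the table, and each had at least 14 counts in 1 library or more. The values of NEFL and NEFM in COV318-MGP against the other libraries are therefore given as a description, and both reach the minimum of 10 counts that all genes of the table meet in COV318-MGP libraries only.

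The study asked what Matrix Gla Protein (MGP), a secreted protein of the extracellular matrix, does in ovarian cancer cells. RNA-seq was done on 8 libraries, 1 for each condition, from the ovarian carcinoma cell lines OVCAR3 (passage 4) and COV318 (passage 18), both listed with ascites as their tissue and epithelial cell as their cell type. OVCAR3-MGPKO cells carried a CRISPR-Cas9 knockout of MGP made with a pair of guides and came from isolated clones, and OVCAR3-CTR cells were their control. COV318-MGP cells received the human MGP cDNA and COV318-CTR cells an empty vector, both by lentivirus packaged in HEK293T cells and followed by puromycin selection. Each of these was grown adherent, called bulk, or as second-generation spheres in non-adherent dishes with B27, EGF and FGF2, called OCSC for ovarian cancer stem cells. OVCAR3 bulk medium also contained insulin.

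Intermediate filaments are ropes of coiled-coil proteins that give cells their mechanical strength, and each cell type builds them from its own set of subunits. In neurons the light, medium and heavy neurofilament subunits (NEFL, NEFM and NEFH) assemble together with alpha-internexin (INA) and fill the axon. NEFL is the subunit that the others assemble on, the long tails of NEFM and NEFH set the spacing between filaments, and INA appears earlier in neuronal development than the other subunits. Nestin (NES) is the large filament protein of neural progenitors and also of other immature, muscle and endothelial cells, and it assembles with vimentin. Epithelial cells such as those of ovarian carcinoma build their filaments mainly from keratins.

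Libraries held 12294591 to 37393919 counts on genes. A count of 3, taken here as the floor of detection, stands for 0.0802 to 0.244 CPM, which is counts scaled to a common library total. In the COV318-MGP cells MGP itself had 40393 counts when bulk and 28694 when OCSC, and the COV318-CTR libraries held 1 count (bulk) and 0 counts (OCSC). In OVCAR3 it had 0 and 1 counts in OVCAR3-CTR and 0 and 2 in the libraries labelled OVCAR3-MGPKO, so its RNA did not separate these. The paper itself found MGP protein in OVCAR3 by immunoblot and checked the knockout by RT-qPCR, immunoblot and immunofluorescence. The COV318-MGP libraries stood apart. Across genes, on log2(normalized count + 1), they correlated with COV318-CTR at r = 0.747 to 0.757 and with OVCAR3 at 0.771 to 0.786. COV318-CTR and OVCAR3 correlated at 0.798 to 0.806, and the pairs within COV318-CTR, COV318-MGP and OVCAR3 at 0.951 to 0.979. Of 13 ovarian carcinoma markers, 12 were over 2-fold lower and 0 higher in COV318-MGP bulk than in COV318-CTR bulk, and 11 were lower and 1, KRT8, higher in OCSC. Over all genes above the floor, 26.3% were lower and 24.5% higher in bulk, and 27.3% and 27.0% in OCSC. PAX8 and SOX17, transcription factors of Müllerian epithelium, and KRT7, a simple-epithelial keratin, had 0 counts in both COV318-MGP libraries against 6778, 5183 and 19478 in COV318-CTR bulk. The labelled epithelial ovarian identity was thus not borne by most of these markers in the COV318-MGP libraries, and their part in the results below was not tested. In bulk RNA, fewer cells of a type and less RNA per cell cannot be told apart.

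NEFL, the light subunit, was read in COV318-MGP cells and stood at the floor in every other library. Its counts in COV318-MGP cells were 2564 in bulk and 857 in OCSC. It had 0 counts in COV318-CTR bulk, COV318-CTR OCSC, OVCAR3-CTR bulk, OVCAR3-MGPKO bulk and OVCAR3-CTR OCSC, and 1 in OVCAR3-MGPKO OCSC. The COV318-MGP libraries were high and did not overlap with the rest. In normalized counts, which are counts divided by the size factor of the library, the levels were 1410 in bulk and 1227 in OCSC. Against a floor of 3 counts in the control library, NEFL in COV318-MGP cells was higher by at least 873-fold in bulk and at least 275-fold in OCSC.

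NEFM, the medium subunit, had the same pattern. It had 891 counts in COV318-MGP bulk, 490 in COV318-MGP OCSC and 0 in each of the other 6 libraries. Its normalized counts were 490.0 in bulk and 701.5 in OCSC. These were at least 303-fold and at least 157-fold above the matching COV318-CTR library at the floor. In the 6 other libraries the floor of 3 counts stands for 0.0802 to 0.244 CPM, whereas NEFM reached 29.9 and 37.0 CPM in COV318-MGP cells.

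Scaled by length, as CPM per kilobase of merged exons, NEFL had the higher level of the pair. In COV318-MGP cells NEFL stood at 21.8 when bulk and 16.4 when OCSC, and NEFM at 8.22 and 10.2. Among the 16902 genes whose exon length could be read from the annotation, NEFL was at percentile 87.2 and 85.0 and NEFM at percentile 68.0 and 75.6. The ratio of NEFL to NEFM per kilobase was 2.66 in bulk and 1.61 in OCSC. NEFL made up 74.2% (exact 95% interval 72.7 to 75.7) of the NEFL and NEFM counts in bulk and 63.6% (61.0 to 66.2) in OCSC. The intervals do not overlap, but they cover counting error only, and 1 library stood for each culture.

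**Figure D1:**
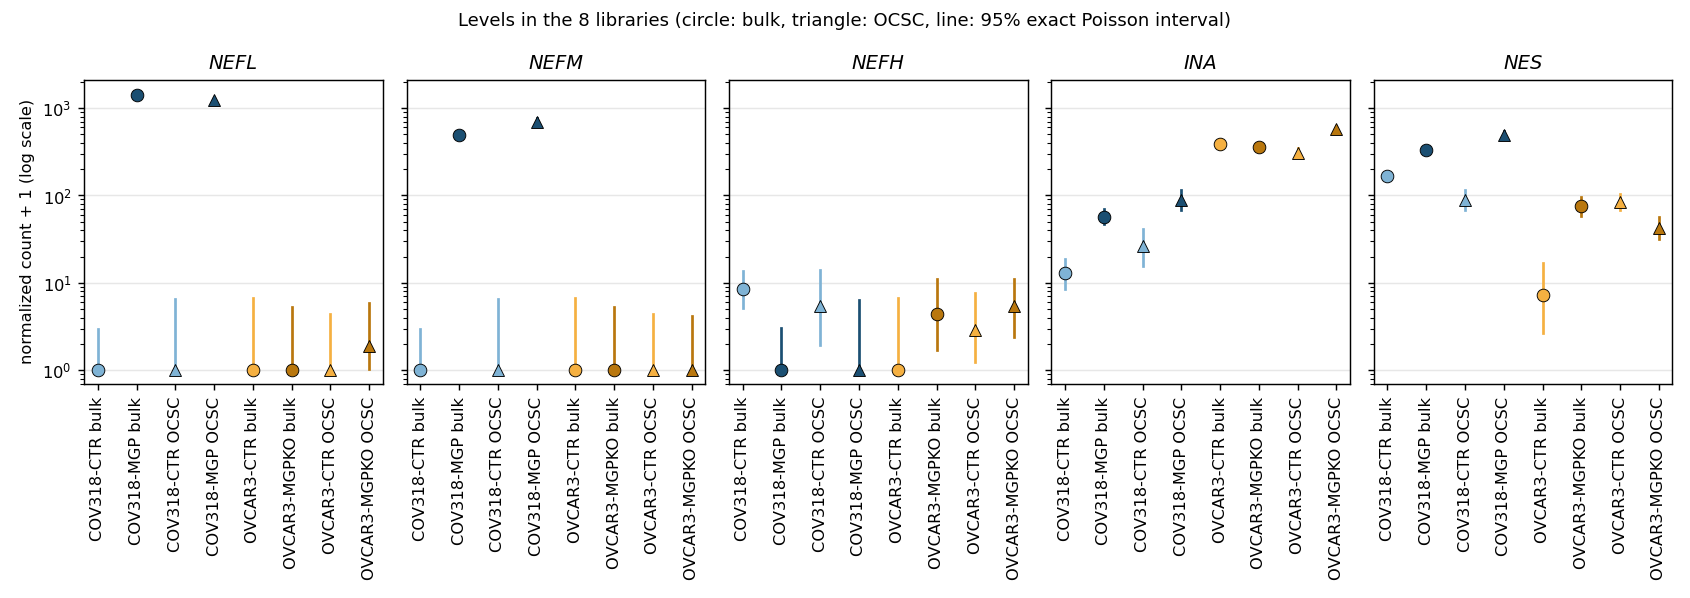
Normalized count + 1 on a log axis for NEFL, NEFM, NEFH, INA and NES in each of the 8 libraries, with exact 95% Poisson intervals of the counts. NEFL and NEFM sit above the floor in the COV318-MGP libraries alone, INA is highest in the 4 OVCAR3 libraries, and NES is highest in the COV318-MGP libraries.

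NEFL and NEFM are neighbours in the genome. In the hg38 annotation NEFL lies on the minus strand at chr8:24950955-24956721 and NEFM on the plus strand at chr8:24913758-24919098, 31856 bases apart. Each overlaps a long non-coding RNA gene on the opposite strand that is not in the count table. The next gene beyond NEFL in the table, DOCK5, had 558 and 815 counts in COV318-CTR bulk and COV318-MGP bulk and 236 and 413 in the matching OCSC, and 322 to 478 in OVCAR3. The next, GNRH1 and KCTD9, were above 0 in all 8 libraries as well. These neighbours were thus above 0 in libraries where NEFL and NEFM had at most 1 count. On the other side, the next genes beyond NEFM (ADAM7, ADAMDEC1 and ADAM28) are not in the count table.

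The on and off pattern was counted over the whole table. At least 50 counts in both COV318-MGP libraries and at most 3 in each of the other 6 were found for 100 of 20339 genes (0.492%), and NEFL and NEFM were 2 of them. NEFH, INA and NES were not. Of the 104 genes in the table that belonged to the 11 gene lists used here, 4 others had the pattern. These were OLIG2, a transcription factor of neural and oligodendrocyte progenitors, EBF2, a factor of the early B-cell family that acts in neurons, INSM1, a neuroendocrine zinc finger, and SALL1, a zinc finger of the developing kidney and nervous system.

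NEFH, the heavy subunit, was close to the floor everywhere. It had 14 counts in COV318-CTR bulk, 3 in COV318-CTR OCSC and 0 in both COV318-MGP libraries. The OVCAR3-CTR libraries held 0 counts (bulk) and 2 counts (OCSC) of it, and the OVCAR3-MGPKO libraries 3 and 5. It lies on the plus strand at chr22:29480218-29491390 and overlaps a long non-coding RNA gene on the opposite strand. COV318-CTR bulk was the highest library, and NEFH was at least 4.57-fold lower in COV318-MGP bulk, the opposite direction to NEFL and NEFM. It was not past a 2-fold difference with a pseudocount of 10 (log2FC -0.81) or on CPM with 1 added (-0.46). With a minimum of 50 counts it was not counted. At these counts the heavy subunit was not detectable in the libraries that had the light and medium ones.

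INA, which encodes alpha-internexin, was mainly read in OVCAR3. In COV318 it had 22 counts in COV318-CTR bulk, 102 in COV318-MGP bulk, 17 in COV318-CTR OCSC and 62 in COV318-MGP OCSC. In OVCAR3 it had 251 counts in OVCAR3-CTR bulk, 313 in OVCAR3-MGPKO bulk, 331 in OVCAR3-CTR OCSC and 653 in OVCAR3-MGPKO OCSC. The normalized counts were 11.8 to 88.8 in COV318 and 309 to 571 in OVCAR3, so the lines did not overlap. How many of all genes separate the lines in this way was not counted, so this is not read as particular to INA. Between the control lines, 54.3% of genes above the floor in bulk and 55.9% in OCSC differed by at least 2-fold in either direction. In order of normalized count, the neighbours whose 95% counting intervals overlapped were COV318-CTR bulk with COV318-CTR OCSC, COV318-MGP bulk with COV318-MGP OCSC by a narrow margin, and OVCAR3-CTR OCSC, OVCAR3-MGPKO bulk and OVCAR3-CTR bulk with each other. COV318-CTR was 32.7-fold below OVCAR3-CTR in bulk, a log2 ratio of -5.03 (exact 95% interval -5.73 to -4.40), and 12.2-fold below it in OCSC (-3.61, -4.41 to -2.91). Counting error aside, no replicate stood behind these differences.

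In the 2 COV318 comparisons INA was higher with MGP, by a log2 fold change (log2FC, on normalized count + 1) of 2.15 in bulk and 1.77 in OCSC. The exact 95% intervals of the log2 ratio, which cover counting error only, were 1.57 to 2.98 and 1.02 to 2.68. With MGP knockout the log2FC was -0.11 in bulk (interval -0.35 to 0.14) and 0.88 in OCSC (0.69 to 1.08). The bulk value was within counting error of no change, and the OCSC value stayed under the 2-fold threshold. INA lies on the plus strand at chr10:103277138-103290346, and its first 468 bases overlap NT5C2 on the opposite strand. NT5C2 fell from 3936 to 1349 counts in COV318 bulk while INA rose. The paper's methods call the poly-A and the ribosomal RNA-depleted libraries strand-specific. Whether counting used the strand is not given in the sources used here.

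NES, which encodes nestin, was read in all 8 libraries. It had 306 counts in COV318-CTR bulk, 607 in COV318-MGP bulk, 59 in COV318-CTR OCSC and 346 in COV318-MGP OCSC. It had 4 counts in OVCAR3-CTR bulk, 65 in OVCAR3-MGPKO bulk, 90 in OVCAR3-CTR OCSC and 48 in OVCAR3-MGPKO OCSC. The COV318-MGP libraries were highest, at 334 and 495 normalized counts, and OVCAR3-CTR bulk was lowest by far, at 6.17. COV318-CTR OCSC, at 87.7, and OVCAR3-CTR OCSC, at 84.0, were neighbours in this order and did not differ beyond counting error, and neither did OVCAR3-CTR OCSC and OVCAR3-MGPKO bulk, at 74.7. NES lies on the minus strand at chr1:156668763-156677407 and overlaps no other annotated gene.

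NES was higher with MGP in COV318, by a log2FC of 1.01 in bulk (interval of the log2 ratio 0.82 to 1.22) and 2.48 in OCSC (2.10 to 2.92). The bulk value lay at the 2-fold threshold, its interval reached below it, and with a pseudocount of 5 or 10 it was no longer past it. In OVCAR3 bulk it was higher in the library labelled OVCAR3-MGPKO, by a log2FC of 3.40 (2.17 to 5.52), where the control held only 4 counts. In OVCAR3 OCSC the log2FC was -0.98 (-1.54 to -0.48), just under the threshold, and the log2 ratio without 1 added was -1.001. NES thus stood higher in both manipulated bulk libraries than in their controls. The part of MGP in this was not tested.

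**Figure D2:**
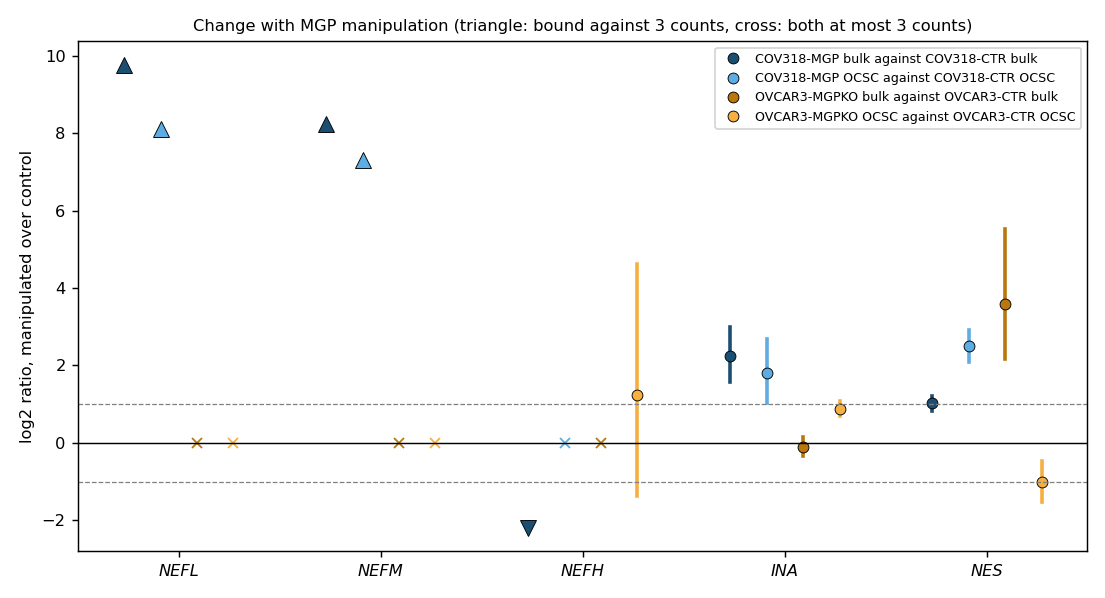
Log2 ratio of the manipulated over the control library for the 5 genes, with exact 95% counting intervals, in the 4 comparisons of MGP manipulation. Upward triangles are lower bounds on a rise and the downward triangle a bound on a fall, both against 3 counts, crosses mark pairs with at most 3 counts in both libraries, and dashed lines mark a 2-fold difference. NEFL and NEFM lie far above INA and NES in COV318.

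The 250 bases before the annotated start are shown for INA and NES, the members above the floor in every library, since their levels differed in order between the lines. They are from RefSeq (GRCh38.p14), whose table held 2 of the 5 members. Those of NEFL, NEFM and NEFH were not in it. Capitals mark matches on either strand to the GC box GGGCGG, to the E-box CANNTG or to CAGCACC, the core of the element that the neuronal repressor REST binds. The INA stretch is chr10:103276888-103277137 on the plus strand and the NES stretch is chr1:156677408-156677657 on the minus strand, both written 5′ to 3′.
INA: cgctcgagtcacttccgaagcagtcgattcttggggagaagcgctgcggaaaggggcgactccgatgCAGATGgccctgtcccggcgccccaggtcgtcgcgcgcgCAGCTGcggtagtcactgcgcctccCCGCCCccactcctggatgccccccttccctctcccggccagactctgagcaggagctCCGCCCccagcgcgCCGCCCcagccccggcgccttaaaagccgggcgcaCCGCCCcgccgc
NES: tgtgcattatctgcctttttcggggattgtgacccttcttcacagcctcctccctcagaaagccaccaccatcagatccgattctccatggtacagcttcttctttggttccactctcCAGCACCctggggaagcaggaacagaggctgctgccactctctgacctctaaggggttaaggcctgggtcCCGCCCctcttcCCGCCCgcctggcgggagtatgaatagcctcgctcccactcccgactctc

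The INA stretch was 72.8% GC with 30 CpG, against a median of 58.0% and 11 over all 35116 promoters of the table. The NES stretch was at 58.0% GC with 8 CpG. INA held 4 GC boxes, the nearest starting 12 bases before the start site, and 2 E-boxes, starting 183 and 144 bases before it, and NES held 2 GC boxes and no E-box. NES also held 1 CAGCACC, starting 132 bases before the start site. None of the marked matches overlap. Over all promoters of the same length, 42.6% held a GC box, 61.8% an E-box and 6.16% a CAGCACC. Neither stretch held a TATA box, searched as TATAAA and found in 10.7% of promoters. Neither held a CCAAT box, searched by those letters and found in 32.0%. These matches describe the letters of the window only.

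The 5 genes were then read together in each comparison. Past 2-fold means here a log2FC of 1 or more in size with more than 3 counts in 1 library or both. In COV318-MGP bulk against COV318-CTR bulk, 5 of 5 were past 2-fold, NEFL, NEFM, INA and NES higher and NEFH lower. Here 24.5% of the 19682 genes above the floor were higher, 26.3% were lower and 50.8% changed either way, and NEFL and NEFM were chosen on this contrast. In OCSC, 4 of 5 were past 2-fold, all higher, against 27.0% of 18842 genes that were higher and 54.2% that changed either way. NEFH was at the floor in both libraries there.

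In OVCAR3 bulk, 1 of 5 was past 2-fold with MGP knockout, NES, which was higher, against 15.1% of 17501 genes that were higher and 24.1% that changed either way. INA was not past it, and NEFL, NEFM and NEFH were at the floor. In OVCAR3 OCSC, 0 of 5 were past it, against 14.9% of 17545 genes in either direction. INA was at 0.88, NES at -0.98 and NEFH, with 5 against 2 counts, at a log2FC of 0.91 (interval -1.38 to 4.62). The log2 ratio without 1 added, to which the interval belongs, was -1.001 for NES and 1.23 for NEFH. Both ratios are past 2-fold in size, so the count of 0 depends on the added 1. NEFL and NEFM stayed at the floor in all 4 OVCAR3 libraries, so that neither could be seen to fall with the knockout.

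Growth as OCSC was compared with bulk within each kind of cell. In COV318-CTR, INA was past 2-fold, at a log2FC of 1.03 (0.09 to 2.07) from 22 and 17 counts, a call that 5 other settings did not keep, 1 of 5 members against 21.0% of all genes in either direction, and NES was at -0.90 (-1.34 to -0.50). In COV318-MGP, 0 of 5 were past 2-fold, against 19.6%. There NEFL was at -0.20 (-0.31 to -0.09), NEFM at 0.52 (0.36 to 0.68), INA at 0.65 (0.18 to 1.13) and NES at 0.57 (0.37 to 0.76).

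In OVCAR3-CTR, NES was past 2-fold, at 3.57 (2.36 to 5.67), 1 of 5 against 27.5%, and INA was at -0.32 (-0.57 to -0.08). In OVCAR3-MGPKO, 0 of 5 were past it, against 19.2%, with INA at 0.67 (0.47 to 0.87) and NES at -0.82 (-1.40 to -0.27). NES had its lowest count of the 8 libraries in OVCAR3-CTR bulk, which is the reference in each of the 2 OVCAR3 comparisons in which it was past 2-fold.

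The control lines were compared with each other too, and the number of members past 2-fold was near or under the share of all genes. Between COV318-CTR bulk and OVCAR3-CTR bulk, 3 of 5 were past 2-fold, against 54.3% of genes, with INA lower in COV318 (log2FC -4.92), NES higher (4.53) and NEFH at least 1.63-fold higher by its bound. NEFH, with 14 counts against 0, was not past 2-fold with a pseudocount of 10 (log2FC 0.81) or on CPM with 1 added (0.46), nor counted with a minimum of 50 counts, which left 2 of 5. In OCSC 1 of 5 was past 2-fold, against 55.9%, INA at -3.56, while NES was at 0.06 (-0.44 to 0.55). The difference of the lines in INA was therefore read in both cultures, and that in NES in bulk.

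Per kilobase, the sum of the 5 genes was 1.75 and 1.35 CPM per kilobase in COV318-CTR bulk and OCSC, 34.8 and 32.7 in COV318-MGP, and 5.23 to 9.51 in OVCAR3. NES made up 84.0% and 63.8% of the sum in COV318-CTR. In COV318-MGP bulk NEFL made up 62.8%, NEFM 23.7%, NES 10.5% and INA 3.03%, and in OCSC 50.2%, 31.1%, 14.3% and 4.40%. In OVCAR3 INA made up 85.9% to 99.1%. The leading gene of the set was NES in COV318-CTR, NEFL in COV318-MGP and INA in OVCAR3. NEFL was chosen for its values in COV318-MGP, so its lead there is a description only. With NEFL and NEFM set aside, NES led in COV318-MGP as in COV318-CTR. The ratio of INA to NES per kilobase was 0.123 to 0.494 in the 4 COV318 libraries and 6.30 to 107.5 in the 4 OVCAR3 libraries.

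**Figure D3:**
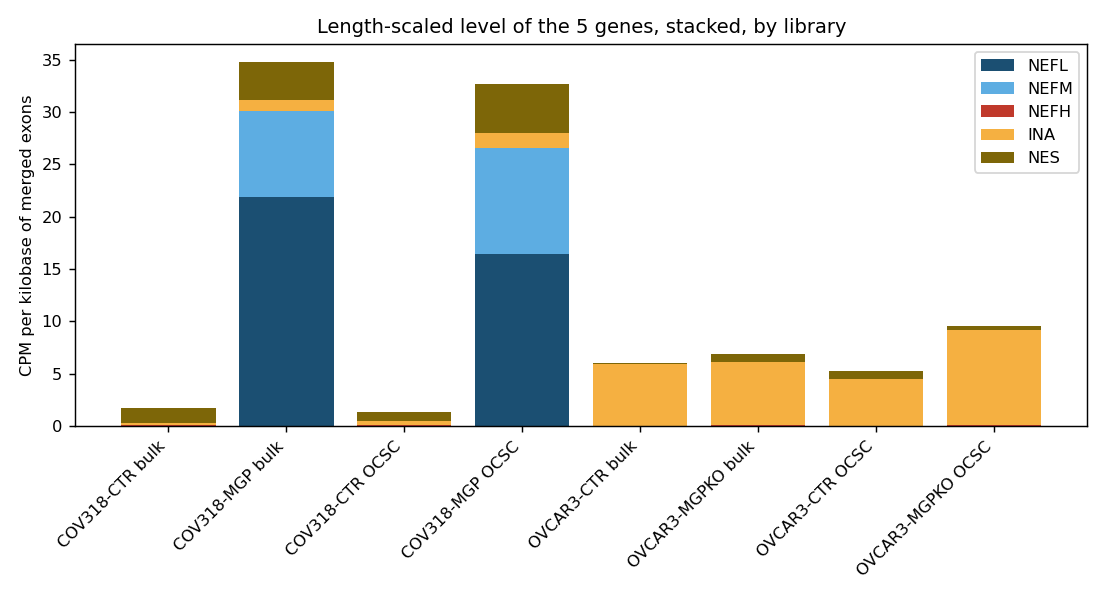
CPM per kilobase of merged exons of NEFL, NEFM, NEFH, INA and NES, stacked for each of the 8 libraries. The COV318-MGP bars, at 34.8 and 32.7, consist mostly of NEFL and NEFM, the OVCAR3 bars of INA, and the COV318-CTR bars, at 1.75 and 1.35, of NES.

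Patterns most like each gene were ranked by Pearson's r of log2(normalized count + 1) over the 8 libraries, among the 15302 genes that reached 50 normalized counts in 1 library or more. The libraries share their line and manipulation, and these values are a description. For NEFL the nearest were SNTG2-AS1, OLIG2, MGP, FOXF1 and ASTN1, at r = 0.998, and NEFM ranked 14, at 0.997. For NEFM the nearest were TRABD2B, GYPC, LINC02163, LINC02253 and LOC107984581, and NEFL ranked 18. All of these were at or near 0 outside COV318-MGP, so the rank among them rests on 2 libraries.

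For INA the nearest were BEAN1, MXRA8, RHPN1, ETS2 and DGKZ, with r from 0.988 to 0.993. For NES they included GTF2H2B, EAF2, TRO and PDIA4, with r from 0.965 to 0.971. INA and NES had r = -0.557 with each other, NEFL and NES 0.698, and NEFL and INA -0.200. The members thus followed no single pattern over the 8 libraries.

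Other genes of the filament system were taken from lists, and are given by their counts past 2-fold beside the background of the same comparison, 24.5% higher and 26.3% lower in bulk and 27.0% higher and 27.3% lower in OCSC. Of 14 other intermediate filament genes, 4 were higher and 5 lower in COV318-MGP bulk, and 3 higher and 6 lower in OCSC. One of the higher genes in bulk, GFAP, is in the table only through COV318-MGP libraries. BFSP2, lower in OCSC, is in it only through COV318-CTR OCSC. KRT7 and KRT19, keratins of simple epithelia, were lower in both. KRT8 and KRT18, keratins of simple epithelia too, were lower in bulk (-1.07 and -3.78), while in OCSC KRT8 was higher (3.15) and KRT18 stood at 0.95. LMNA, which encodes lamins A and C of the nuclear envelope, was lower in both cultures (log2FC -2.63 and -1.48). PRPH, which encodes peripherin, the filament of peripheral neurons, was higher in both (2.05 and 2.59), from 4 to 22 and from 2 to 16 counts. VIM, which encodes vimentin, the partner of nestin, was at 0.21 in bulk and 2.39 in OCSC.

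In the OVCAR3 libraries VIM had 23 counts in OVCAR3-CTR bulk, 94 in OVCAR3-MGPKO bulk, 319 in OVCAR3-CTR OCSC and 2858 in OVCAR3-MGPKO OCSC. VIM and NES were both higher in OVCAR3-MGPKO bulk than in OVCAR3-CTR bulk. In OCSC VIM was higher with MGP knockout as well, and NES was not.

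Of 14 linkers, motors, kinases and turnover factors of filaments in the table, 4 were higher and 2 lower in COV318-MGP bulk and 5 higher and 1 lower in OCSC. KIF5A, the neuronal kinesin heavy chain that carries neurofilaments along axons, was higher at a log2FC of 5.72 in bulk, from 14 to 818 counts, and 5.84 in OCSC, from 7 to 456. KIF5C, its relative, was higher in both cultures (1.23 and 1.56). TRIM2, a ubiquitin ligase of NEFL, was lower in both (-1.48 and -1.83). CDK5R1, the activator of the neurofilament kinase CDK5, was higher in bulk (1.77) and stood at 0.98 in OCSC.

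Genes of neurons moved both ways. Of 18 pan-neuronal markers 16 were in the table, STMN2, GAP43 and SYN1 only through COV318-MGP libraries. Of these 16, 6 were higher and 5 lower in COV318-MGP bulk and 8 higher and 4 lower in OCSC. Over all genes above the floor, 24.5% were higher and 26.3% lower in bulk, and 27.0% and 27.3% in OCSC. Without those 3, 4 were higher and 5 lower of 12 above the floor in bulk, and 5 higher and 4 lower of 13 in OCSC. The median log2FC of all listed genes above the floor, with folds against 0 counts at their bound, was 0.23 in bulk and 0.47 in OCSC. Over all genes of the table above the floor it was -0.04 and 0.0016. Without STMN2, GAP43 and SYN1 the list median was -0.62 and -0.37. That filter follows the change itself, so this sign is not read as a direction. It kept ELAVL3, which fell and reached 10 counts in COV318-CTR libraries only. The summed normalized count of the list was 8454 to 12940 in COV318-CTR, 6838 to 7404 in COV318-MGP and 12730 to 26205 in OVCAR3. Without UCHL1, which had the highest summed normalized count over the 4 COV318 libraries and was left out after seeing the data, it was 5794 to 9299, 4546 to 5345 and 4772 to 18456.

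ELAVL2, a neuronal RNA-binding protein, was higher (5.86 and 5.90, from 28 to 1697 counts in bulk), and so was SYP, the synaptic vesicle protein synaptophysin (4.33 and 4.13). GAP43 and STMN2, growth cone proteins, were higher from 0 counts in COV318-CTR bulk to 110 and 18. L1CAM, a neural adhesion molecule that carcinomas also express, fell from 7572 to 92 counts in bulk, and ELAVL3, a relative of ELAVL2, from 93 to 0.

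Of 17 neuronal lineage transcription factors, 9 were in the table, NEUROG2 and EBF2 only through their counts in COV318-MGP libraries. Of these 9, 6 were higher and 1, EBF1, was lower in each COV318 culture. Over all genes of the table, 16.65% were higher and 17.4% lower in both cultures. Without NEUROG2 and EBF2, 6 genes of the list were above the floor, and 4 of these were higher and 1 lower in each culture. POU4F1, a sensory neuron factor, had the highest counts, 14 to 4154 in bulk and 3 to 1126 in OCSC. EBF3 (6.84 and 7.07), ISL2 (5.45 and 4.89) and LHX2 (1.53 and 2.40) were higher too. NEUROG2, a proneural factor, went from 0 to 29 and from 0 to 12 counts. The list was small and was written with earlier results of these data known.

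Of 12 neural progenitor markers, 9 were in the table, OLIG2 and POU3F2 only through COV318-MGP libraries. Of these 9, 3 were higher and 1 lower in bulk and 4 higher and 3 lower in OCSC. The shares of all genes above the floor were 24.5% higher and 26.3% lower in bulk, and 27.0% and 27.3% in OCSC. Without OLIG2 and POU3F2 it was 1 higher and 1 lower of 7 above the floor in bulk, and 2 higher and 3 lower of 6 in OCSC. PAX6 (7.29 and 5.78), POU3F2 (8.95 and 6.59) and OLIG2, transcription factors of neural progenitors, were higher in both, whereas SOX2 was at -0.73 in bulk and lower in OCSC (-1.57). SOX11 was lower in both, with 0 counts in both COV318-MGP libraries. Of 9 glial markers 5 were in the table, GFAP and OLIG2 only through COV318-MGP libraries. Of these 5, 4 were higher and 1 lower in bulk and 3 higher and 1 lower in OCSC, and MBP, the myelin basic protein, was the lower one. Without GFAP and OLIG2 it was 2 higher and 1 lower of 3 in each culture. Of 8 neuroendocrine markers, 4 were not in the table, and 3 of the others (CHGB, INSM1 and SCG3) reached its minimum of 10 counts in COV318-MGP libraries only, so that their direction was set by their entry. SCG2, secretogranin II, was lower in both cultures.

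REST is the repressor that keeps neuronal genes off in other cells. It fell from 6344 to 2119 counts in COV318 bulk, a log2FC of -1.55 (-1.62 to -1.48), and was at -0.56 (-0.68 to -0.45) in OCSC, from 1547 to 1086 counts. Of 8 genes of the REST complex, 1, RCOR2, was higher and 2 were lower in bulk, and 1 was higher and 1 lower in OCSC. These counts stand beside 24.5% of all genes above the floor that were higher and 26.3% lower in bulk, and 27.0% and 27.3% in OCSC. The fall of REST in bulk is thus 1 change among many. In OVCAR3, 0 of 8 were past 2-fold in either culture, where 24.1% of all genes in bulk and 14.9% in OCSC were past it. The part of REST in the levels of NEFL and NEFM was not tested.

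**Figure D4:**
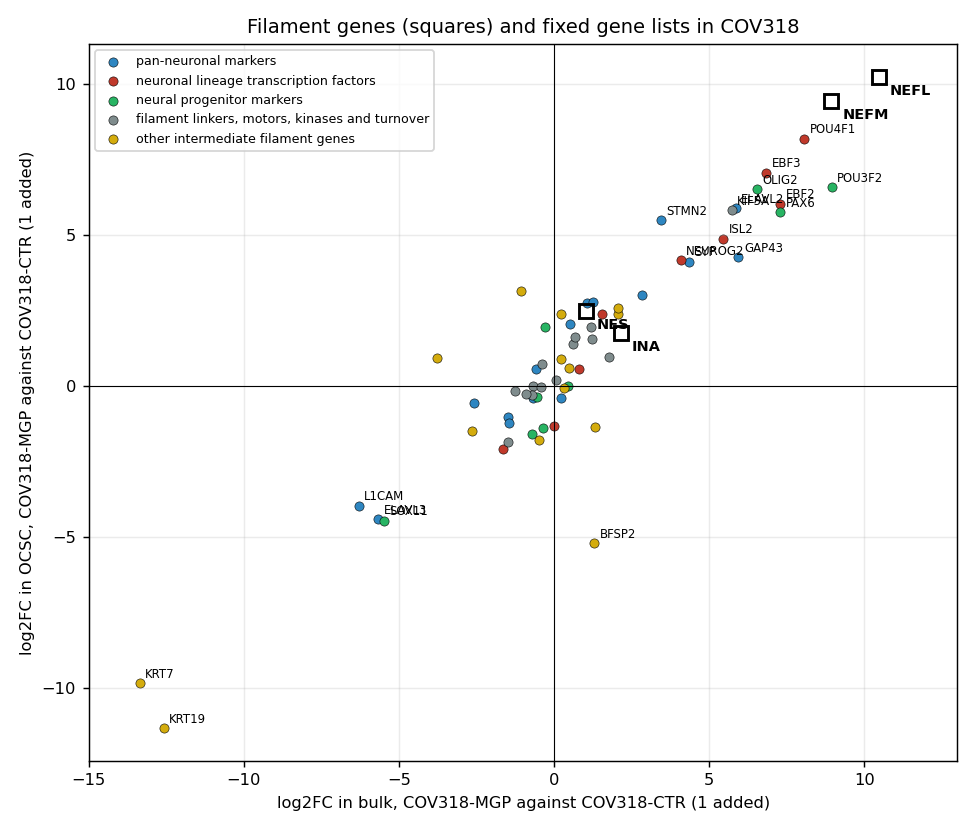
Log2FC with MGP added to COV318 cells, in bulk (horizontal) and OCSC (vertical), with 1 added to the normalized counts, for 5 gene lists (coloured points) and for NEFL, NEFM, INA and NES (squares). NEFH is not drawn, since both OCSC libraries were at the floor. NEFL and NEFM lie at the upper right beyond POU4F1, and KRT7 and KRT19 at the lower left.

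Markers of other tissues moved in the same comparison. Among all genes above the floor, 24.5% were higher and 26.3% lower there in bulk, and 27.0% and 27.3% in OCSC. Of 10 embryonic kidney lineage markers, the tissue that HEK293T packaging cells come from, 5 were higher and 4 lower in COV318-MGP bulk and 6 higher and 4 lower in OCSC, with PAX2 and SALL1 in the table only through COV318-MGP libraries. Without these it was 3 higher and 4 lower of 8 in bulk, and 4 higher and 4 lower of 8 in OCSC. This kept LIN28A and DPPA4, which were lower and reached 10 counts in COV318-CTR libraries only. The reduced counts are therefore one-sided and are not read as a balance. SALL1 went from 0 to 532 and from 1 to 326 counts, while WT1 fell from 1254 to 61 and from 710 to 15. The summed normalized count of this list was 7729 to 13604 in COV318-CTR, 4282 to 4400 in COV318-MGP and 1033 to 4338 in OVCAR3. Most of the COV318-CTR sum was DPPA4, a gene of pluripotent cells, with 19621 and 3614 counts. Without it, an alternative chosen after seeing the data, the order of the COV318 libraries turned, with 2358 to 3036 in COV318-CTR and 4282 to 4399 in COV318-MGP. Of the listed genes LIN28A and DPPA4 had 0 counts in COV318-MGP OCSC.

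Of 10 mesenchymal and endothelial markers in the table, 3 were higher and 5 lower in bulk and 4 higher and 4 lower in OCSC. All genes above the floor gave 24.5% higher and 26.3% lower in bulk, and 27.0% and 27.3% in OCSC. The summed normalized count of the ovarian carcinoma markers was 19303 to 51092 in COV318-CTR, 2013 to 8506 in COV318-MGP and 145222 to 287313 in OVCAR3. The part of these other cell types in the NEFL and NEFM values was not tested, and in COV318 they cannot be told apart from the manipulation, since 1 line received each vector.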

How the data were processed

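The analysis used 8 RNA-seq libraries, each the only one of its condition. Per the labels and the study's methods, the reads, which were paired-end, were aligned by the authors to hg38 with STAR (version 2.7.5c in the submitters' processing notes) and deposited as raw counts per gene. Per gene and library there is also a deposited normalized signal, which is the count divided by the DESeq2 size factor. The annotation used for counting, which of several TruSeq kits served these libraries, and any strand setting of the counting are not given in the sources used here. Of the library types in the paper's methods, the poly-A and the ribosomal RNA-depleted ones are called strand-specific. Each gene in the table has at least 10 counts in 1 library.

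The size factor of each library was taken again from the counts, by median of ratios over 15518 genes above 0 in every library, and the values equalled the deposited ones to a relative deviation of 7.55e-10. The log2FC was taken on log2(normalized count + 1) and called at 1 in size with more than 3 counts in a library. A fold against 0 counts was computed against 3 counts per library. Intervals of 95% are exact (Clopper-Pearson for ratios and shares, Poisson for counts), and they cover counting error only. With 1 library per condition no replicate was available and no test was made.

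Exon lengths and positions came from GENCODE 44 (hg38) and sequences from RefSeq. The genes named are the 5 members, MGP, listed genes, neighbours and the 5 nearest patterns per member. The members and lists were chosen with earlier results of these data known. The alternatives were edgeR's TMM, CPM, size factors within the pair, the deposited values, other pseudocounts (0.5, 5 and 10), a minimum of 10 or 50 counts, a log2 threshold of 2, and an interval that had to exclude no change. List sums without 1 gene, and list counts without genes that reached 10 counts in COV318-MGP libraries only, were added after seeing the data. These list counts kept genes that reached 10 counts in COV318-CTR libraries only, so they are one-sided. Python 3.11.15, numpy 2.4.6, pandas 2.3.3, scipy 1.17.1, matplotlib 3.10.9, R 4.3.3 and edgeR 4.0.16 were used. The computation was tested on simulated data. Results that need items withheld for evaluation are not reported here.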

Additional observations from a re-analysis of the deposited data

Results flagged for a closer look

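In several pairs of comparisons NES or INA moved in opposite directions, with 1 library per condition, and in each pair the difference between the comparisons was not tested. With MGP knockout in OVCAR3, the log2FC of NES was 3.40 in bulk and -0.98 in OCSC. From bulk to OCSC, that of NES was -0.90 in COV318-CTR, 0.57 in COV318-MGP, 3.57 in OVCAR3-CTR and -0.82 in OVCAR3-MGPKO. From bulk to OCSC, that of INA was 1.03 in COV318-CTR, -0.32 in OVCAR3-CTR and 0.67 in OVCAR3-MGPKO. The values of NES that exceeded 3 rest on OVCAR3-CTR bulk, where NES had 4 counts. Comparisons that share a control library are not independent.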

How the results depend on the processing

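The number of members past 2-fold stayed within 1.5 times its value under the other settings, with these exceptions. In COV318 bulk it was 3 in place of 5 with a pseudocount of 10, which lost NES and NEFH. In OVCAR3 OCSC with MGP knockout it was 1 in place of 0 with a pseudocount of 0.5, through NEFH. In COV318-CTR, OCSC against bulk, it was 0 in place of 1 with CPM, with pseudocounts of 5 and 10, with at least 50 counts and with a threshold of 2, each losing INA. Of 217 single values under other settings, 193 stayed close, 24 moved and 0 called values reversed. The sign of INA with MGP knockout in bulk, which was not past 2-fold, was 0.04 with CPM, and that of NES between the control lines in OCSC was -0.01 with size factors from the pair. CPM shifted the median of all genes with at least 50 counts by 0.29 in COV318 bulk and -0.21 in COV318-MGP OCSC against bulk, and TMM by 0.10 and -0.12. The number of members past 2-fold between the control lines in bulk was 2 in place of 3, without NEFH, with CPM, a pseudocount of 10 or at least 50 counts. CPM with 1 added on that scale also compressed folds of low genes. The log2FC of NES was then 1.97 with MGP knockout in OVCAR3 bulk and 1.93 from OVCAR3-CTR bulk to OCSC. Between the control lines in bulk it was 2.81. These values of NES stayed past 2-fold. No paired analysis was possible because the labels give no replicate numbers that groups share, and with 1 library per condition no replicate could be left out. A fit with culture as a block, which takes both cultures as replicates of the manipulation, was not made. Depth limits NEFH in all libraries and NES in OVCAR3-CTR bulk.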
